A study of Mus musculus with 6 samples.

Results

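The expression of 9 aquaporin genes, *Aqp1*, *Aqp2*, *Aqp3*, *Aqp4*, *Aqp5*, *Aqp7*, *Aqp8*, *Aqp9* and *Aqp11*, was analysed in the embryonic ureter, out of 56748 gene identifiers in the count table. The genes were chosen by symbol, and a gene was treated as measured when at least 3 of the 6 libraries held 10 or more counts of it, which 4 of the 9 genes did. The libraries came from whole ureters of wildtype NMRI mouse embryos at E12.5, which hold both the ureteric epithelium (UE) and the surrounding ureteric mesenchyme (UM). All explants were cultured for 18 h on transwell membranes. In 3 samples the medium held LiCl at 15 mM, which blocks GSK3B and so activates *Ctnnb1*-dependent WNT signaling, and the 3 control samples received water. The labels do not say whether the replicates came from separate litters or cultures, so p-values measure only the spread between these samples. The study used this short treatment to ask whether transcription factor genes of ureter differentiation are impaired by ectopic WNT signaling.

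Aquaporins are membrane channels that let water pass along osmotic gradients. The water channels of the family, among them AQP1, AQP2, AQP4, AQP5 and AQP8, conduct mainly water, whereas the aquaglyceroporins AQP3, AQP7 and AQP9 conduct glycerol as well, and AQP11 is a divergent member that resides mainly in the endoplasmic reticulum. In the collecting duct of the kidney, vasopressin drives AQP2 into the apical membrane of principal cells while AQP3 and AQP4 form the basolateral exit for water, and long-term lithium is known to lower AQP2 there. In the urinary tract, AQP3 is a known aquaporin of the urothelium, and AQP1 is widespread in vascular endothelium.

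Each library held between 28473436 and 31266945 counts. The WNT target genes *Axin2*, *Lef1*, *Nkd1* and *Notum* rose with LiCl, by 0.92, 0.49, 0.42 and 2.03 on the log2 scale. The UE markers (11 of 11 tested) and the UM markers (9 of 9 tested) were present in all libraries. Of the 9 nephron markers, 5 were tested, with a summed level of the list of 53.7 to 65.4 CPM (counts scaled to the library size with TMM factors) in the controls, most of it from *Lrp2* at 36.5 ± 8.81 CPM (SD, n = 3), while *Slc34a1* and *Umod* were at 0 counts in every library. Skeletal muscle markers stood apart in LiCl replicates 1 and 3, with a summed level of 35.5 and 76.6 CPM, against 7.02 CPM in LiCl replicate 2 and 5.58 to 6.67 CPM in the controls.

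Of the 9 genes, *Aqp1*, *Aqp3*, *Aqp4* and *Aqp11* were measured, and all 4 fell with LiCl at an adjusted p under 0.05 (edgeR's quasi-likelihood test, Benjamini-Hochberg over 18188 tested genes). At this threshold 22.4% of all tested genes fell. *Aqp1*, *Aqp3* and *Aqp4* also passed the fold change threshold of the study, a log2 fold change below -1, which 4.59% of all tested genes did. *Aqp11* did not. None of the 9 genes was called higher, against 2.74% of all tested genes, and none rose at an adjusted p under 0.05, against 21.1% (0 also with DESeq2, and 0 at an unadjusted p under 0.05 with edgeR). In each of the 4 genes, every LiCl library lay below every control library, as was the case for 27.8% of all tested genes, while 26.4% were separated in the opposite direction. *Aqp4* was measured through the controls alone, since no LiCl library reached 10 counts, so it could enter the test only by being higher in the controls.

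**Figure D1:**
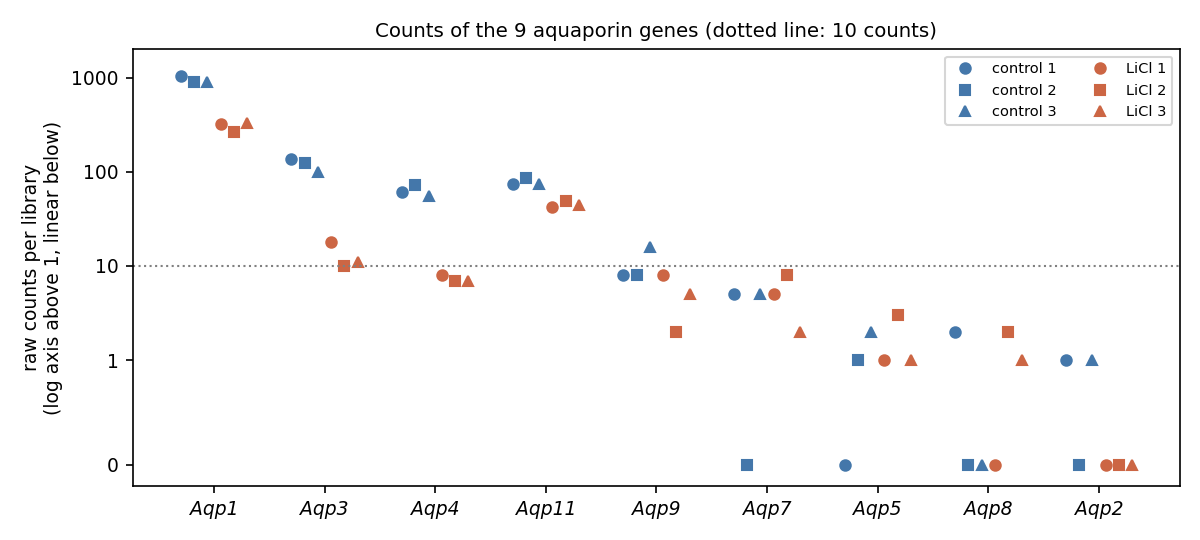
Raw counts (y axis, logarithmic above 1 and linear below) of the 9 aquaporin genes in the 3 control (blue) and 3 LiCl (orange) libraries, with a dotted line at 10 counts. *Aqp1* has the most counts, *Aqp1*, *Aqp3*, *Aqp4* and *Aqp11* are separated between the groups, and *Aqp2*, *Aqp5* and *Aqp8* never exceed 3 counts.

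The proximal promoters of the measured aquaporins are shown for reference, and their part in the fall with LiCl was not tested. The sequences are from RefSeq for GRCm38.p6, not the GRCm39 build of the counts, and run 5′ to 3′ from 250 bases before to 50 bases after the annotated start. Promoters of 8 of the 9 aquaporins were examined, and that of *Aqp4* was not among them. The capitals mark matches, on either strand, to one of 6 motifs, namely the TCF/LEF core CTTTGA, the FOXA motif TGTTTAC, the GATA motif AGATAA, the nuclear receptor half-site AGGTCA, the TATA box TATAAA and the GC box GGGCGG. The motifs were chosen after the expression values were seen, and no marked match overlaps another.
*Aqp1*, chr6:55336049-55336348, forward strand: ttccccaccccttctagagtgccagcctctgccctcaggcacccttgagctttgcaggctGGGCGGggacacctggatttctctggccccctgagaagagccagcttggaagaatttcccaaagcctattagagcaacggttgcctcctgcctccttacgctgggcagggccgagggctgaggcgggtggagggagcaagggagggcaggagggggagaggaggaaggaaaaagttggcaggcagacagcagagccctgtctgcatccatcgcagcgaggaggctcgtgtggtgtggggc
*Aqp3*, chr4:41098134-41098433, reverse strand: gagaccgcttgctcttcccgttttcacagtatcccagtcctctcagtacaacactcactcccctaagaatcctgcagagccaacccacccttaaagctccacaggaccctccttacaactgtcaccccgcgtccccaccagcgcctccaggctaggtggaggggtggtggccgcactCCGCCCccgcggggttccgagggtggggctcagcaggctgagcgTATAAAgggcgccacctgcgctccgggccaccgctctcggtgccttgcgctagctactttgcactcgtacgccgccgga
*Aqp11*, chr7:97738198-97738497, reverse strand: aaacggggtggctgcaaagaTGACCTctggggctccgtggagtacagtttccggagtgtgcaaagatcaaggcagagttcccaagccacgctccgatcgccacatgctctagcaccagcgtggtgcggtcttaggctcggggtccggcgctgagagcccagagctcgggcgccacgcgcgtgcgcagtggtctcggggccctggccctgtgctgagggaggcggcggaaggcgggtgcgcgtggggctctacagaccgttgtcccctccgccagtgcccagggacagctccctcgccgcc

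The *Aqp1* promoter held 1 match, a GC box that begins 190 bases before the start. That of *Aqp3* held a GC box on the opposite strand 73 bases and a TATA box 29 bases before the start. That of *Aqp11* held a nuclear receptor half-site on the opposite strand 230 bases before the start. Among 32817 promoters of this length, 35.6% held the GC box, 13.6% the TATA box and 16.3% the half-site. The letters of the TCF/LEF core, found in 16% of all promoters, of the FOXA motif, found in 3.65%, and of the GATA motif, found in 11.2%, did not occur in these 3 windows. The GC content was 62.7% for *Aqp1*, 64.0% for *Aqp3* and 68.0% for *Aqp11*, against a median of 52.7% over all promoters.

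*Aqp1* (ENSMUSG00000004655) encodes the water channel of red blood cells, endothelium and the renal proximal tubule. It had 1044, 890 and 902 counts in control replicates 1 to 3 and 322, 263 and 327 counts in LiCl replicates 1 to 3. As CPM, these were 36.3, 28.7 and 29.4 in the controls and 10.4, 9.41 and 11.6 with LiCl. The lowest control was thus far above the highest LiCl library. The group means were 31.5 ± 4.21 CPM without and 10.5 ± 1.10 CPM with LiCl (SD, n = 3 each). The log2 fold change was -1.59 ± 0.11 (SE), which is 3.01-fold lower, with an edgeR adjusted p of 9.2e-06. Control replicate 1 was the highest of the controls, and without it the log2 fold change was -1.47.

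*Aqp3* (ENSMUSG00000028435) encodes the aquaglyceroporin of basolateral membranes in collecting duct, epidermis and urothelium. Its counts were 135, 124 and 99 in the controls and 18, 10 and 11 with LiCl. These corresponded to 4.70, 3.99 and 3.23 CPM in the controls and to 0.58, 0.36 and 0.39 CPM with LiCl. All 3 LiCl libraries were far below the lowest control. The group means were 3.97 ± 0.73 CPM without and 0.44 ± 0.12 CPM with LiCl (SD, n = 3 each). The log2 fold change was -3.14 ± 0.25 (SE), which is 8.83-fold lower, with an edgeR adjusted p of 2.0e-05. It ranked 15 from the lowest of 18188 tested genes.

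*Aqp4* (ENSMUSG00000024411) encodes the water channel of astrocyte end-feet, skeletal muscle and the basolateral membrane of principal cells. It had 61, 73 and 55 control counts and 8, 7 and 7 counts with LiCl. On the CPM scale the controls were at 2.12, 2.35 and 1.79, and the LiCl libraries at 0.257, 0.251 and 0.248. The 3 LiCl libraries were nearly alike, and all lay below every control. The group means were 2.09 ± 0.28 CPM without and 0.252 ± 0.00475 CPM with LiCl (SD, n = 3 each). The log2 fold change was -3.03 ± 0.26 (SE), which is 8.16-fold lower, with an edgeR adjusted p of 2.9e-05. The small SD with LiCl does not describe the precision at this depth. The 22 counts of the 3 LiCl libraries together have an exact 95% Poisson interval from 13.8 to 33.3 counts, and the 189 counts of the controls one from 163 to 218 counts, both for counting error only. Without LiCl replicates 1 and 3, which held skeletal muscle transcripts, the log2 fold change was -3.03, a value that rests on a single LiCl library with 7 counts. The part of muscle cells in the level of *Aqp4* was not tested.

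*Aqp11* (ENSMUSG00000042797) encodes the divergent aquaporin whose loss is known to cause cystic kidneys in mice. It had 74, 85 and 74 control counts and 42, 49 and 44 counts with LiCl. The corresponding values were 2.57, 2.74 and 2.42 CPM in the controls and 1.35, 1.75 and 1.56 CPM with LiCl. Every LiCl library was again below every control, but by less than for the other measured aquaporins. The group means were 2.58 ± 0.16 CPM without and 1.56 ± 0.20 CPM with LiCl (SD, n = 3 each). The log2 fold change was -0.73 ± 0.18 (SE), which is 1.66-fold lower, with an edgeR adjusted p of 0.010. Without LiCl replicates 1 and 3 the log2 fold change was -0.54 and the adjusted p 0.19 from the same test, in which the lone LiCl sample is assumed to vary like the controls.

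**Figure D2:**
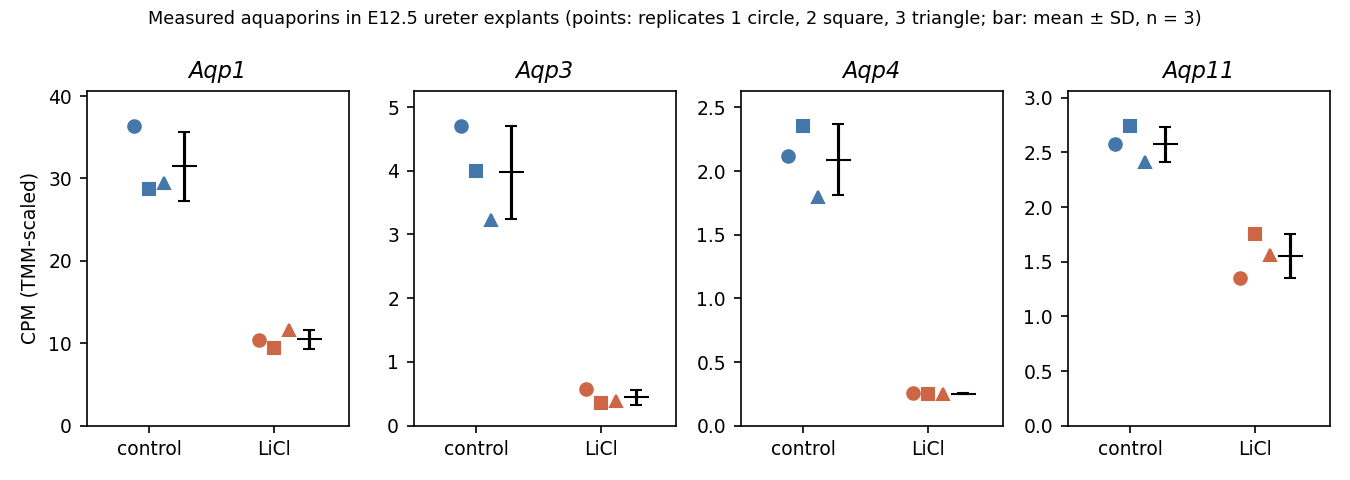
CPM after TMM scaling (y axis, from 0) of *Aqp1*, *Aqp3*, *Aqp4* and *Aqp11* in control (blue) and LiCl (orange) replicates 1 (circle), 2 (square) and 3 (triangle), with the mean ± SD (n = 3) as a black bar. All LiCl libraries sit below all controls in each gene, at 0.248 to 0.257 CPM against 1.79 to 2.35 CPM for *Aqp4* and at 1.35 to 1.75 CPM against 2.42 to 2.74 CPM for *Aqp11*.

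The other 5 genes were at or near the limit of detection in both groups, and none entered the test. A count of 0 in a library allows up to 3 counts, which is 0.0965 to 0.107 CPM. *Aqp2* (ENSMUSG00000023013), the vasopressin-regulated channel of collecting duct principal cells, had 1, 0 and 1 control counts and 0 counts in each LiCl library. A change of *Aqp2* was therefore not detectable at this depth. *Aqp5* (ENSMUSG00000044217), known from salivary and lacrimal glands, had 0, 1 and 2 control counts and 1, 3 and 1 counts with LiCl. *Aqp8* (ENSMUSG00000030762), known from liver and colon, had 2, 0 and 0 control counts and 0, 2 and 1 counts with LiCl. No fold change is given for these 3 genes, since both groups were at or under 3 counts per library.

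The remaining aquaglyceroporins had a few more counts. *Aqp7* (ENSMUSG00000028427), the glycerol channel of adipocytes, had 5, 0 and 5 control counts and 5, 8 and 2 counts with LiCl, so the groups overlapped. *Aqp9* (ENSMUSG00000032204), known from hepatocytes and leukocytes, had 8, 8 and 16 control counts and 8, 2 and 5 counts with LiCl. Its groups met at 8 counts. The 32 control counts of *Aqp9* have an exact 95% Poisson interval from 21.9 to 45.2 counts and the 15 LiCl counts one from 8.40 to 24.7 counts, so the intervals overlapped. In a fit without a filter on low counts, neither passed the test, with an edgeR adjusted p of 0.23 for *Aqp9* and of 0.60 for *Aqp7* (log2 fold change 0.64 ± 0.80, SE).

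Levels of different genes were compared as FPKM, which takes gene length into account. In the controls, *Aqp1* had the highest level with 11.8 ± 1.51 FPKM (SD, n = 3). *Aqp3* followed with 2.15 ± 0.39 FPKM (SD, n = 3), and the ranges of both genes did not overlap. *Aqp4*, with 0.33 ± 0.05 FPKM, and *Aqp11*, with 0.27 ± 0.02 FPKM (each SD, n = 3), had overlapping ranges, so their order is not resolved. *Aqp9* was next with 0.084 ± 0.035 FPKM (SD, n = 3). Its lowest control, at 0.0619 FPKM, was just above the highest control of *Aqp7*, at 0.0604 FPKM. Neither gene met the count rule, so this order is not resolved. Among *Aqp7*, *Aqp2*, *Aqp8* and *Aqp5*, each range overlapped that of the next gene. The summed level of the 9 genes was 16.9, 13.8 and 13.6 FPKM in the controls, of which *Aqp1* made up from 78.9% to 81.5% and *Aqp3* from 12.8% to 15.8%.

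With LiCl, the summed level was 4.58, 4.21 and 4.95 FPKM. *Aqp1* remained the highest with 3.99 ± 0.43 FPKM (SD, n = 3) and made up from 85.1% to 89.4% of the sum. The level of *Aqp3* was 0.24 ± 0.07 FPKM (SD, n = 3), from 4.32% to 6.92% of the sum. Every LiCl value of *Aqp11*, at 0.17 ± 0.02 FPKM (SD, n = 3), was lower. However, *Aqp3* had fewer counts than *Aqp11* in each LiCl library. Their order thus rests on the gene lengths used, 1829 and 9418 bases, and on few counts of *Aqp3*, and is not firmly resolved. *Aqp4* was at 0.0405 ± 0.0007 FPKM (SD, n = 3), below every LiCl value of *Aqp11*, and its range overlapped those of *Aqp5*, *Aqp7*, *Aqp8* and *Aqp9*, so their order is not resolved.

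Whether the measured aquaporins fell by the same factor was examined through their FPKM ratios within each library, compared between groups over 6 pairs of genes. Ratios with *Aqp4* rest on 7 or 8 counts of it per LiCl library, and it was measured through the controls alone. The ratio of *Aqp3* to *Aqp1* was 0.186, 0.200 and 0.158 in the controls and 0.0803, 0.0546 and 0.0483 with LiCl, a difference of -1.60 on the log2 scale. The ratio of *Aqp11* to *Aqp4* was 0.803, 0.771 and 0.890 in the controls and 3.47, 4.63 and 4.16 with LiCl, a difference of 2.31 on the log2 scale. The groups did not overlap in either of these pairs, nor in *Aqp1* to *Aqp4*, *Aqp11* to *Aqp1* and *Aqp3* to *Aqp11*. Each of these 5 pairs had p = 0.1 (two-sided exact permutation test, adjusted p = 0.12 over the 6 pairs), the smallest p that 3 against 3 samples allow, so no pair could pass 0.05. The ratio of *Aqp3* to *Aqp4* was 7.54, 5.79 and 6.13 in the controls and 7.67, 4.87 and 5.36 with LiCl. These values overlapped between the groups, with a difference of -0.14 on the log2 scale (two-sided exact permutation test, p = 0.6, adjusted p = 0.6).

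Since whole ureters were profiled, fewer cells of a type and less RNA per cell cannot be told apart, and the levels were set beside those of cell type markers. The UE markers were lower with LiCl, with a summed level of 1338 to 1664 CPM in the controls and 968 to 1014 CPM with LiCl. Of these 11 genes, 8 fell and 1 rose at an adjusted p under 0.05, against 22.4% and 21.1% of all tested genes. The log2 fold changes ranged from -1.63 for *Krt7* to 0.37 for *Epcam*, with a median of -0.59 against -0.01 over all tested genes. The log2 fold changes of *Aqp3* and *Aqp4* lay below those of all 11 markers, that of *Aqp1* below those of 10, and that of *Aqp11* inside their range. Per 100 CPM of summed UE markers, *Aqp3* was at 0.282, 0.261 and 0.241 CPM in the controls and at 0.0571, 0.0366 and 0.0403 CPM with LiCl. By the same measure *Aqp4* was at 0.128, 0.153 and 0.134 CPM in the controls and at 0.0254, 0.0256 and 0.0256 CPM with LiCl. *Aqp1* was at 2.18, 1.87 and 2.20 CPM in the controls and at 1.02, 0.962 and 1.20 CPM with LiCl. Relative to the UE markers, these 3 genes still separated the groups. *Aqp11* did not, with 0.155, 0.179 and 0.180 CPM per 100 CPM of UE markers in the controls and 0.133, 0.179 and 0.161 CPM with LiCl. This result for *Aqp11* depends on the markers summed, since most of them fell. *Epcam* was higher in every LiCl library than in any control, so *Aqp11* relative to *Epcam* does separate the groups. The part of the lower UE markers in the fall of each aquaporin was not tested further.

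**Figure D3:**
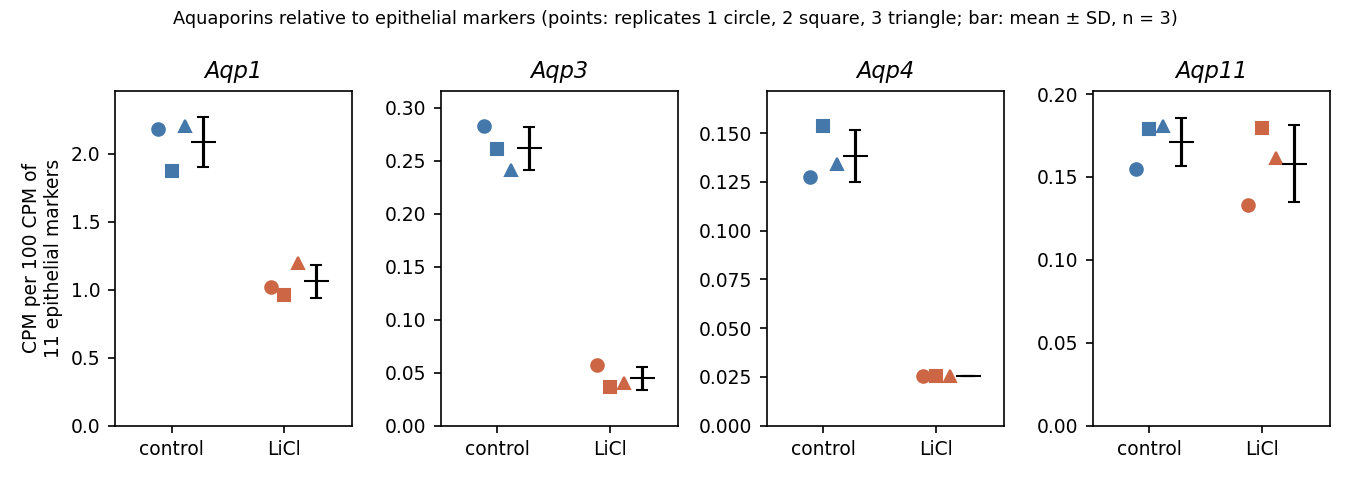
CPM of the 4 measured aquaporins per 100 CPM of the summed 11 UE markers (y axis, from 0) in control (blue) and LiCl (orange) replicates 1 (circle), 2 (square) and 3 (triangle), with the mean ± SD (n = 3). *Aqp1*, *Aqp3* and *Aqp4* still separate the groups on this scale, whereas *Aqp11* overlaps at 0.155 to 0.180 in the controls and 0.133 to 0.179 with LiCl.

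The level of *Aqp1* was also set beside markers of other cell types known to express it. Shares over all tested genes were 22.4% that fell, 21.1% that rose and 4.59% that were called lower. Of the 11 endothelial markers, 2 fell and 1 rose at an adjusted p under 0.05, with a median log2 fold change of -0.05, and their summed level was 593 to 753 CPM in the controls and 553 to 679 CPM with LiCl. The endothelial marker *Tek* alone passed the fold change threshold, at a log2 fold change of -1.15, which was -0.98 without LiCl replicate 1. Of 11 tested erythroid markers, 1 fell and 3 rose, with a median of 0.49 and a summed level of 498 to 724 CPM in the controls and 645 to 994 CPM with LiCl. Of the 4 mesothelial markers, 2 fell and 1 rose, with *Msln* called lower at a log2 fold change of -1.22, and with a summed level of 28.8 to 30.4 CPM in the controls and 27.5 to 34.8 CPM with LiCl. Of the 5 tested nephron markers, 2 fell and 1 rose, with a median of -0.50 and a summed level of 31.9 to 46.4 CPM with LiCl, and *Cited1* and *Crym* were called lower at log2 fold changes of -1.29 and -1.31. Without LiCl replicates 1 and 3, that of *Cited1* was -0.97. Per 100 CPM of endothelial markers, *Aqp1* was at 6.12, 4.49 and 3.91 CPM in the controls and at 1.87, 1.63 and 1.71 CPM with LiCl, so the groups remained apart. The part of these cell types in the fall of *Aqp1* was not tested further.

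Genes known as markers of the collecting duct, the renal segment in which AQP2, AQP3 and AQP4 work together, were also lower with LiCl. Whole ureters were profiled and *Aqp2* had 0 or 1 count per library, so these genes do not show that collecting duct cells were present. Of 6 tested genes 5 fell and 4 were called lower, against 22.4% and 4.59% of all tested genes. The median log2 fold change was -1.42, and the summed level was 159 to 169 CPM in the controls and 66.5 to 76.7 CPM with LiCl. The members called lower were *Scnn1b* and *Scnn1g*, which encode subunits of the epithelial sodium channel, *Fxyd4*, a regulator of the sodium pump, and *Slc26a4*, an anion exchanger of intercalated cells. The call of *Slc26a4*, at 0.96 CPM in the controls, was lost without any one library other than control replicate 2, with adjusted p from 0.055 to 0.18 (edgeR). *Hsd11b2*, which inactivates glucocorticoids, fell by 0.51 on the log2 scale. *Avpr2*, the vasopressin receptor of principal cells, was at 0.34 ± 0.12 CPM in the controls and 0.50 ± 0.13 CPM with LiCl (SD, n = 3 each) and did not pass the test, and *Foxi1* and *Atp6v1b1*, genes of intercalated cells, were below 1 CPM in every library.

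Markers of other cell types gave these values, against 22.4% of all tested genes that fell and 21.1% that rose. The 9 UM markers had 6 lower and 1 higher gene at an adjusted p under 0.05, with a median log2 fold change of -0.25 and a summed level of 6646 to 7237 CPM in the controls and 4903 to 5533 CPM with LiCl. Of 6 smooth muscle markers 4 fell, with a median of -0.83. Of 9 macrophage markers, a cell type that can express *Aqp9*, 4 fell and 1 rose, with a median of -0.48. Of 9 neural crest and glial markers 2 fell, with a median of -0.05. Of the 5 adipocyte markers, 1 was tested, *Fabp4*, which fell by 2.73 on the log2 scale, while *Adipoq*, *Cidec*, *Lep* and *Plin1* were below 1 CPM in every library. *Fabp4* is also known from capillary endothelium. Of 7 tested skeletal muscle markers 6 rose, with a median of 2.92. The part of these cell types in the aquaporin values was not tested.

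To place the aquaporins in their pathways, 5 gene lists were examined. Over all tested genes, 22.4% fell, 21.1% rose, 4.59% were called lower and 2.74% higher. Of 38 genes of vasopressin-regulated water reabsorption, from the receptor through cyclic AMP signaling to the vesicle and dynein proteins that move AQP2, 37 were tested. Of these, 11 fell and 3 rose at an adjusted p under 0.05, with a median log2 fold change of 0.01. Only *Arhgdib* and *Creb3l3*, a transcription factor of the CREB3 family, were called lower. *Arhgdib* fell from 21.0 ± 0.46 to 7.89 ± 0.34 CPM, a log2 fold change of -1.41, and *Creb3l3* from 1.22 ± 0.09 to 0.52 ± 0.36 CPM, a log2 fold change of -1.18 (each SD, n = 3). The call of *Creb3l3* rested on single libraries, since its adjusted p from edgeR was 0.11 without LiCl replicate 2, 0.12 without LiCl replicate 3, and 0.075, 0.067 and 0.10 without control replicates 1, 2 and 3. *Avp*, the gene of the hormone itself, was at 0 counts in every library.

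Of 14 tested glycerol handling genes, 7 fell and 0 rose at an adjusted p under 0.05 (0 also at an unadjusted p under 0.05 and with DESeq2), against 22.4% and 21.1% of all tested genes, with a median log2 fold change of -0.20, and none was called. The 3 largest decreases were those of *Mgll* and *Pnpla2*, lipases that release fatty acids from glycerides, and of *Lpin1*, a phosphatidate phosphatase, at -0.97, -0.83 and -0.78 on the log2 scale. These 3 genes were named after their values were seen. *Gk*, the glycerol kinase, did not pass the test (-0.15 ± 0.12 on the log2 scale, SE, edgeR adjusted p of 0.33).

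Of 16 transcription factor genes that are linked to aquaporin genes or to the epithelia that express them, 14 were tested. Of these 9 fell and 0 rose, against 22.4% and 21.1% of all tested genes. DESeq2, counted with the fold change minimum, also called none higher. The median log2 fold change was -0.58, and 4 were called lower, against 4.59% of all tested genes. *Foxa1*, *Pparg* and *Elf5* had the largest decreases. *Foxa1*, a factor of urothelial differentiation, had a log2 fold change of -1.76, *Pparg*, a nuclear receptor that is known to activate *Aqp7* in adipocytes, one of -1.43, and *Elf5*, an ETS factor of the collecting duct and other epithelia, one of -1.24. *Tfcp2l1*, a factor of collecting duct differentiation, was the fourth at -1.06, or -0.97 without LiCl replicates 1 and 3. *Gata2*, a factor of the collecting duct lineage, had a log2 fold change of -0.08 and did not pass the test. *Nfat5*, the osmosensitive factor known to activate *Aqp2*, fell by 0.50 on the log2 scale.

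Of 12 urea and cell volume transport genes, 5 rose and 1 fell at an adjusted p under 0.05, with a median log2 fold change of 0.08. Among all tested genes 21.1% rose, 22.4% fell and 2.74% were called higher. *Slc14a2*, a urea transporter of the renal medulla, was the only one called higher, with 2.85, 3.64 and 2.90 CPM in the controls and 13.3, 9.02 and 10.8 CPM with LiCl, or 1.82 on the log2 scale. *Slc14a1*, the urea transporter of red cells and urothelium, had a log2 fold change of 0.10 and did not pass the test. *Kcnj10*, a potassium channel that lies beside AQP4 in glia, fell by 0.52 on the log2 scale. The volume-regulated channel subunits *Lrrc8b* and *Lrrc8c* rose by 0.65 and 0.54 on the log2 scale, whereas *Lrrc8a*, *Lrrc8d* and *Lrrc8e*, at -0.02, 0.05 and -0.07, did not pass the test.

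**Figure D4:**
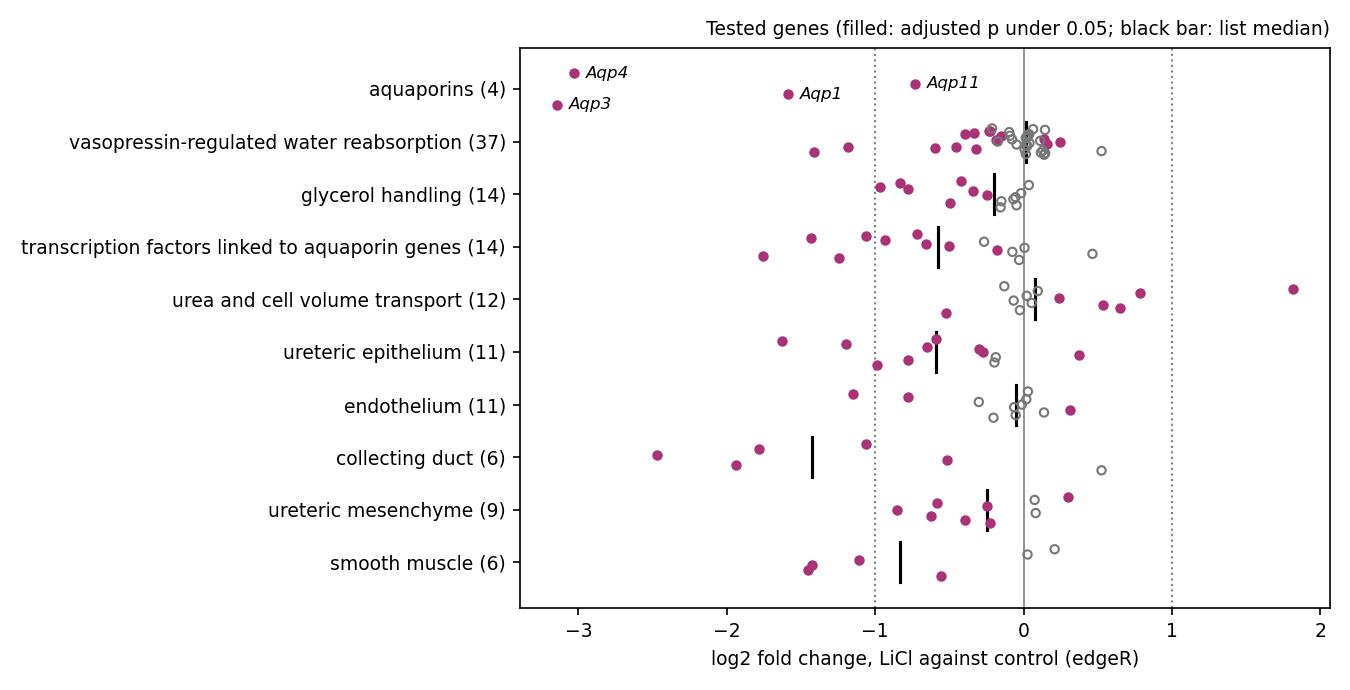
Log2 fold change of LiCl against control (x axis, edgeR) of each tested gene, in rows by gene list with the number of tested genes, filled where the adjusted p was under 0.05 and with a black bar at the median of each list but the aquaporins. *Aqp3* and *Aqp4* lie at -3.14 and -3.03, left of every gene of the other lists shown, of which *Scnn1b* at -2.47 is the nearest.

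The 3 other aquaporin genes of the mouse were *Mip*, known as aquaporin 0 of the lens, *Aqp6* and *Aqp12*. *Mip* had 24, 28 and 30 control counts and 36, 38 and 45 counts with LiCl. All LiCl libraries were above all controls, but *Mip* did not pass the threshold (0.59 ± 0.23 on the log2 scale, SE, edgeR adjusted p of 0.063). In GENCODE vM21, made for GRCm38, 57.0% of the exonic bases of *Mip* lie opposite the exons of the antisense gene *Gm26847*, and the strand setting of the counting is not given in the sources used here, so reads of both genes may not be told apart. No exon of the 9 aquaporin genes overlapped an exon of another gene in that annotation. *Aqp6* had 0 to 4 counts per library and *Aqp12* 0 or 1 count.

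For each aquaporin called lower, the 3 genes with the most similar profile were determined among 15447 other tested genes whose mean reached 1 CPM, by the root mean square (RMS) difference of mean-centred log2 CPM over the 6 libraries. For *Aqp1* these were *Fam228b*, *Dcn* and *Gnb3*, with RMS differences of 0.08, 0.08 and 0.10. *Dcn* encodes decorin, a small proteoglycan of connective tissue, and fell from 93.2 ± 14.6 to 29.8 ± 3.31 CPM (each SD, n = 3). For *Aqp3*, *Akr1c19*, *Plekhd1* and *Foxq1* were nearest, with RMS differences of 0.17, 0.19 and 0.22. For *Aqp4*, *Akr1c19* again, *Rhcg* and *Scnn1b* were nearest, with RMS differences of 0.16, 0.17 and 0.18. *Rhcg* encodes an ammonia channel of the distal nephron and fell from 36.8 ± 6.13 to 5.01 ± 0.37 CPM (each SD, n = 3). The measure includes the difference between the groups, so it is no evidence beyond it.

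The decreases were compared under other ways of processing. *Aqp1* and *Aqp3* were called lower in each of the 19 alternatives. *Aqp4* was called in 15 of the 16 that tested it, except with limma on unfiltered log2(FPKM + 1), in which its log2 fold change was -0.36, since a pseudocount above the level of a gene compresses its change. *Aqp11* kept its direction in all 17 alternatives that tested it.

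**Figure D5:**
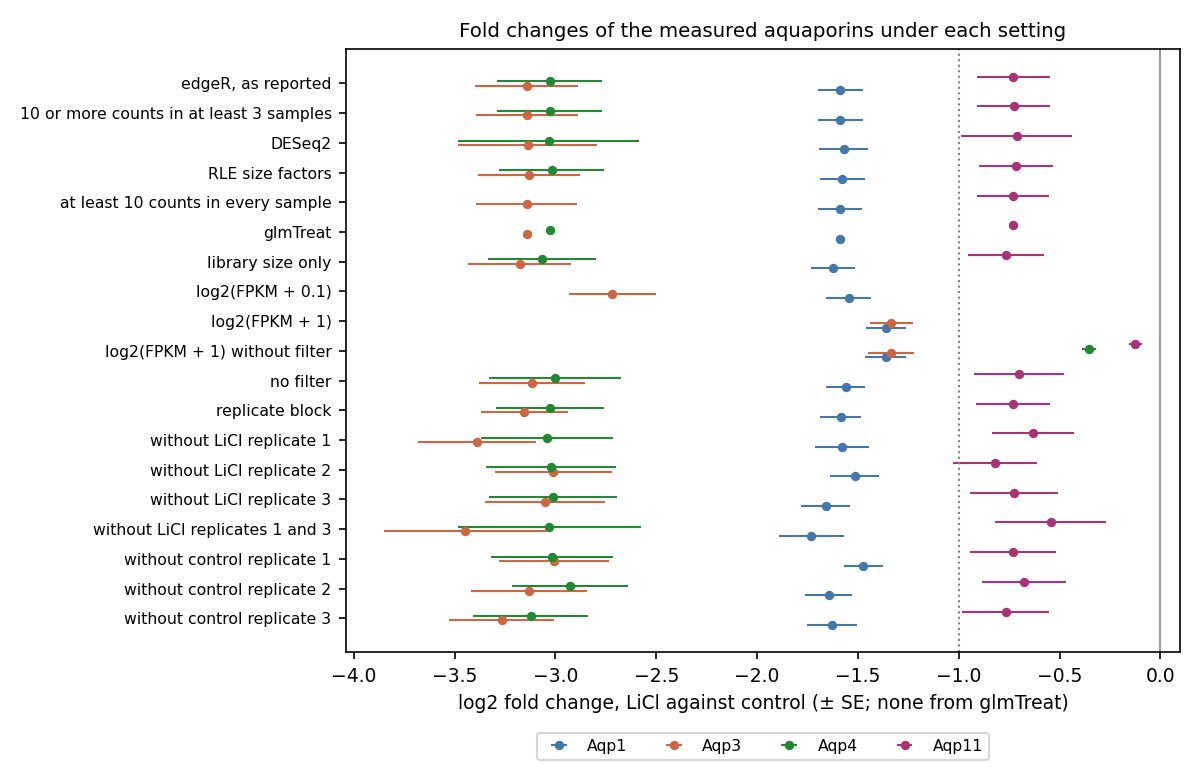
Log2 fold change of LiCl against control (x axis, with the standard error where the method gives one) of *Aqp1*, *Aqp3*, *Aqp4* and *Aqp11* under each way of processing (rows), with a dotted line at the threshold of -1. Points are absent where a filter removed the gene, *Aqp1* stays between -1.73 and -1.36, and *Aqp3* between -3.45 and -1.34.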

How the data were processed

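RNA-Seq libraries of 3 LiCl and 3 control samples were analysed, grouped by the titles in the labels. The authors deposited raw counts per gene, for which the methods name HISAT2 and GRCm39 (the submitters' processing notes name fastp 0.23, STAR 2.7, featureCounts 2.0 and DESeq2 1.40). FPKM values were deposited as well, which equal the counts divided by size factors and a gene length that was whole within 0.1 bases in 100% of values with over 50 counts. The annotation release and strand setting are not given in the sources used here. Symbols came from GENCODE vM21, which named 52073 of 56748 identifiers.

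The test was edgeR's quasi-likelihood test (edgeR 4.0.16, R 4.3.3), after filterByExpr and TMM scaling, with Benjamini-Hochberg adjustment over 18188 genes. Genes were called where the adjusted p was under 0.05 and the log2 fold change beyond 1 or -1. "Rose" and "fell" mean an adjusted p under 0.05. The SE of a log2 fold change is its size divided by the root of F. Ratios were compared with exact permutation tests (scipy 1.17.1).

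Named were all 9 aquaporins, the 3 other family genes, 4 WNT targets, up to 3 called genes per related list with the largest change, and the 3 nearest profiles per called aquaporin. Other genes were named after their values were seen. The members and lists were chosen with earlier results of these data known.

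Alternatives were other scalings, filters and tools (DESeq2 1.42.0, limma 3.58.1), each replicate left out and LiCl replicates 1 and 3 left out together. On simulated counts of this comparison with 200 changed genes among 18326 tested, edgeR recovered 100% with 1 false call. The spread between simulated libraries was set and not taken from the data, and all planted changes were larger than that of *Aqp11*. The simulation therefore does not show how well a change of that size, or one with the real spread, is recovered. No 2 libraries of a group were copies, since their counts had chi-square values of 5.93 to 14.5 per degree of freedom.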

Additional observations from a re-analysis of the deposited data

How the results depend on the processing

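The number of aquaporins called lower, 3, was 2 where each sample had to reach 10 counts (*Aqp4* not tested), with log2(FPKM + 1) and log2(FPKM + 0.1) (*Aqp4* and *Aqp11* not tested) and with log2(FPKM + 1) without filter, 4 without a fold change minimum, and 3 in the other alternatives, including each replicate left out. With each replicate left out, or LiCl replicates 1 and 3 together, the log2 fold change ranged from -1.73 to -1.47 for *Aqp1*, from -3.45 to -3.01 for *Aqp3*, from -3.12 to -2.93 for *Aqp4* and from -0.82 to -0.54 for *Aqp11*. Over all alternatives the adjusted p of *Aqp11* ranged from 0.0084 to 1, the latter with glmTreat, which tests against a log2 fold change of 1.

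Of the 5 related lists, 6 genes were called lower, and 3 with glmTreat, with log2(FPKM + 1) and with log2(FPKM + 1) without filter, and 28 without a fold change minimum. The 1 gene called higher was lost (0) with log2(FPKM + 1) with and without filter, and 8 were higher without a fold change minimum. With 1 replicate left out, 5 to 7 genes were called lower and 1 higher. Of the 2 vasopressin pathway genes called lower, *Creb3l3* was lost without LiCl replicate 2 or 3 or any control replicate, with glmTreat and with log2(FPKM + 1) without filter, and was not tested with the stricter filter or the filtered FPKM settings. A pseudocount above a gene's level compresses its change by construction. The order of the 4 measured aquaporins by mean control FPKM was the same without each control replicate and with CPM per kb.

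Control and LiCl samples share only a replicate number. After subtracting the group means, samples of one number had correlations of 0.03, -0.09 and 0.10, and 2 of 6 samples correlated best with their own number. With the replicate number as a block, 3 aquaporins were called lower, with log2 fold changes of -1.59, -3.16 and -3.03 for *Aqp1*, *Aqp3* and *Aqp4*. At this depth, aquaporins that did not reach 10 counts in at least 3 of the 6 libraries could not be compared reliably.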
